A study of Homo sapiens with 16 samples.

Results

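Single-exon transcript models are full-length cDNA models that align to the genome as 1 uninterrupted block. They were taken here as all models with exactly 1 exon in each of 4 pools of full-length cDNA sequencing (IsoSeq), and they made up 5004 of the 299816 models in all 4 pools. The pools came from HEK-293T, an embryonic kidney line that carries the SV40 large T antigen, and from HT-1080, a fibrosarcoma line. Cells of each line received 20 nM of an siRNA against HNRNPH1 (siHNRNPH1), which encodes an RNA-binding protein that regulates splicing, or a negative control siRNA (siNegative), and RNA was isolated after 48 h. Each of the 4 groups is represented by 1 IsoSeq pool, labelled as pooled replicates, and by 3 short-read RNA-seq libraries from biological replicates. The IsoSeq files give no read counts, so an abundant and a rare model weigh the same here, and with 1 pool per group a difference between the siRNAs has no replicate check and no test. All intervals on shares of models are exact Clopper-Pearson 95% intervals and cover counting error only, although models of 1 gene are not independent.

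Most human genes contain introns, and a transcript without one usually comes from an intronless gene, from a retrogene (a copy made by reverse transcription of a spliced mRNA) or from a compact long noncoding RNA. Single-block cDNAs can also come from unspliced precursors, from transcripts that end inside an intron, and from fragments of a long last exon. Mitochondrial transcripts have no introns at all. In IsoSeq, cDNA synthesis is primed at the poly(A) tail, so models of 1 RNA tend to share a 3′ end and can differ in how far they reach towards the 5′ end.

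The short reads served as the replicated readout. HNRNPH1 itself was at 1107, 1105 and 1121 CPM (counts scaled to a library total of 1 M, mega) in the HEK-293T siNegative libraries and at 234, 376 and 394 CPM with siHNRNPH1. In HT-1080 it was at 635, 606 and 617 CPM with siNegative and at 231.5, 231.0 and 228.5 CPM with siHNRNPH1. Library totals ran from 107.7 to 121.0 M in HEK-293T and from 27.3 to 32.7 M in HT-1080. Replicate 1 of HEK-293T siHNRNPH1 stood apart: its log2 CPM correlated with replicates 2 and 3 across genes at r of 0.965 and 0.962, against 0.999 between those replicates. Whether its RNA is in the HEK-293T siHNRNPH1 IsoSeq pool is not stated beyond the label of pooled replicates. The line markers fell on the labelled side. NEFM and INA, neurofilament genes expressed in HEK-293T, were at 252 to 490 and 18.4 to 35.5 CPM there and at or under 0.037 CPM in HT-1080, and CD44, MMP14 and PLAU were each at 1496 CPM or more in HT-1080 and under 3 CPM in HEK-293T. LIN28B and PAX2 were higher in HEK-293T as well, and CAV1 was higher in HT-1080.

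Models of 1 exon were a small and similar share of every pool. There were 951 of 64705 models in the HEK-293T siNegative pool (1.47%, interval 1.38 to 1.56%) and 1533 of 94847 in the HEK-293T siHNRNPH1 pool (1.62%, 1.54 to 1.70%). HT-1080 had 1240 of 72186 with siNegative (1.72%, 1.62 to 1.82%) and 1280 of 68078 with siHNRNPH1 (1.88%, 1.78 to 1.98%). The share was 0.15 percentage points higher with siHNRNPH1 in HEK-293T and 0.16 points higher in HT-1080, and in both lines the intervals of the pools overlap. The HEK-293T siHNRNPH1 file holds more single-exon and more multi-exon models in total than the other files. Counts of models between these pools are therefore given per total models of the pool.

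Some of the genes listed as intronless had models that began at or next to an annotated transcription start, which places the sequence just upstream of the model. Of the list of 57 genes described as intronless that is used throughout, 8 had at least 5 models that began at a single position within 10 bases of a RefSeq start. The 30 bases from 35 to 6 before that start, where a TATA box lies if a promoter has one, are shown 5′ to 3′ on the strand of the gene, from RefSeq on GRCh38.p14, with the letters TATAA in capitals where present.
MALAT1: ccgtcTATAAatacgcctcgcccgagctgt
NORAD: gctcctctcttgccagcgcagagaactgcc
HNRNPA0: cacgcctcggggagggtgcgcgcgcgttca
CHMP1B: cctgcgccgctcacagtagaaacaggaagt
KCTD12: gctctacttaagcagcgcgcgggccgcgac
JUN: gtagcagataagtgttgagctcgggctgga
EXOC8: ctcagacccggcgcaggcgtactcgtctcg
HSPA1B: acgactTATAAaagccgaggggcgcgcggt

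The windows lie at chr11:65499010-65499039 (+) for MALAT1, chr20:36050966-36050995 (-) for NORAD, chr5:137754369-137754398 (-) for HNRNPA0 and chr18:11851378-11851407 (+) for CHMP1B. Those of KCTD12, JUN, EXOC8 and HSPA1B lie at chr13:76886411-76886440 (-), chr1:58784053-58784082 (-), chr1:231337858-231337887 (-) and chr6:31827703-31827732 (+). TATAA, searched on both strands, was present upstream of MALAT1 and HSPA1B and not in the other windows. Over the whole RefSeq table, 1749 of 35116 promoters (4.98%) held it in the same window, as did 18 of the 48 promoters that the table gives for 44 of the list genes. At MALAT1, the nuclear long noncoding RNA of speckles, 39 of 67 models began at the first annotated base after its TATA-containing window. At NORAD, a cytoplasmic long noncoding RNA that binds PUMILIO proteins, 25 of 101 did so without one. The commonest start of HNRNPA0, which encodes an hnRNP, lay 6 bases inside the annotated start, with 19 of 36 models at that exact base. CHMP1B encodes an ESCRT-III protein, and 15 of its 17 models began 1 base inside the annotated start.

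Single-exon models were shorter than multi-exon models in every pool, and HT-1080 held a class of short models that HEK-293T nearly lacked. Median lengths were 2904 bases in the HEK-293T siNegative pool, 2782 with siHNRNPH1, 2079.5 in the HT-1080 siNegative pool and 2189 with siHNRNPH1, while multi-exon models had medians of 3255, 3099, 2722 and 2832 bases in the same order. Models under 700 bases made up 0.105% and 0% of single-exon models in the HEK-293T pools, the latter 0 of 1533, with an upper bound of 0.240%. They made up 16.9% and 15.1% in the HT-1080 pools. The same cut was seen in multi-exon models, with 0.0031% and 0.0086% under 700 bases in HEK-293T and 2.80% and 2.85% in HT-1080, so the line difference is shared by both kinds of model. Between the siRNAs the median was 122 bases lower in the HEK-293T siHNRNPH1 pool than in its control and 109.5 bases higher in the HT-1080 one. When each locus was represented by its longest single-exon model, the HEK-293T difference was -0.5 bases.

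**Figure D1:**
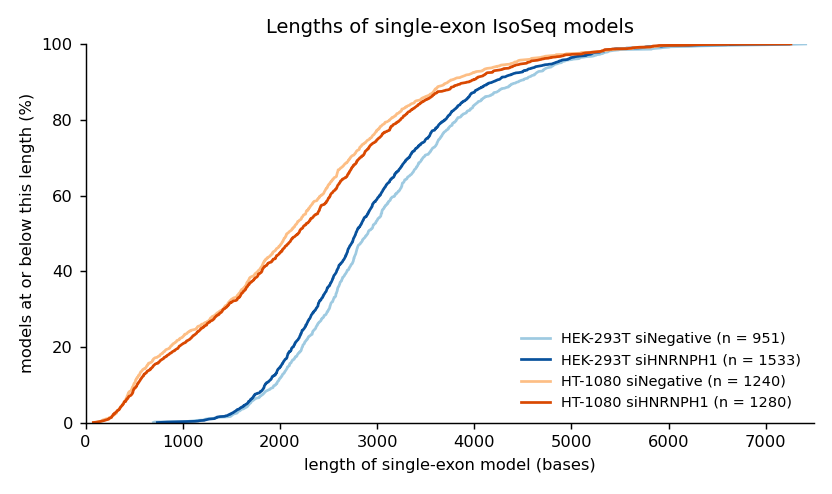
Cumulative share (%) of single-exon models at or below each length (bases) in the 4 IsoSeq pools. Both HT-1080 curves rise from the lowest lengths, with 16.9% and 15.1% of models under 700 bases, whereas the HEK-293T curves stay near 0 there.

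Position was read against a map of all multi-exon models of the 4 pools on the same strand. The largest class lay apart from any multi-exon model: 45.8% and 42.9% in the HEK-293T siNegative and siHNRNPH1 pools, and 52.5% and 53.4% in the HT-1080 pools. A further 17.6%, 19.9%, 16.0% and 16.5% lay within 1 exon of a multi-exon model, and 17.6%, 18.4%, 17.2% and 18.0% overlapped exons without fitting in one. Models that contained a complete intron of at least 50 bases, seen spliced in at least 2 pools, made up 16.8%, 15.4%, 12.2% and 10.3%. Models wholly inside an intron of at least 1 multi-exon model were the rarest class, with 21, 52, 27 and 24 models (2.21%, 3.39%, 2.18% and 1.88%). No minimum number of pools was set for this intron. In each HT-1080 pool the class includes 2 models at the mitochondrial gene COX1, which has no introns, so the intron there is a gap in a multi-exon model. The siRNA pools of a line had overlapping intervals in every class.

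**Figure D2:**
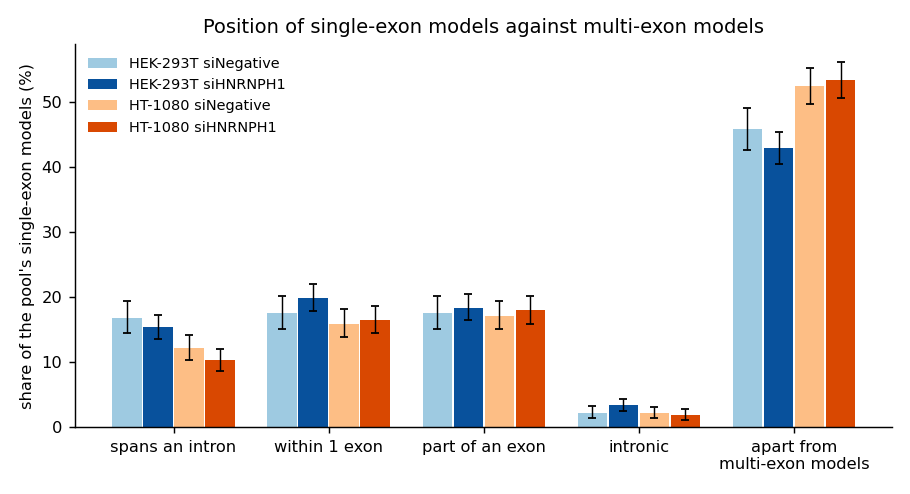
Share (%) of the single-exon models of each pool in 5 position classes, relative to multi-exon models on the same strand. Bars are shares with exact 95% intervals, and the class apart from multi-exon models is the largest in all pools, at 42.9% to 53.4%.

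Against annotated RefSeq gene spans, most models lay in a gene on its own strand: 82.0% and 80.4% in HEK-293T and 71.7% and 71.2% in HT-1080, in the order siNegative and siHNRNPH1. Spans without a known strand took another 12.7%, 12.98%, 24.8% and 24.6%, which include the mitochondrial genes. Only 2.42%, 3.20%, 1.69% and 2.34% were antisense to the only gene they overlapped, and 2.84%, 3.39%, 1.85% and 1.88% were outside all gene spans. The gene was protein-coding for 69.7% to 72.7% of models, a long noncoding RNA for 18.2% to 22.5% and a pseudogene for 1.72% to 3.26%.

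The mitochondrial genome contributed 3.47% and 4.63% of single-exon models in the HEK-293T pools but 17.0% and 16.3% in the HT-1080 pools. RNR2, the 16S ribosomal RNA, was the gene with the most single-exon models of all, with 14, 24, 63 and 60 models in the order HEK-293T siNegative, HEK-293T siHNRNPH1, HT-1080 siNegative and HT-1080 siHNRNPH1, and this order of pools is kept for all counts of models below. The ND5 gene of respiratory complex I had 8, 18, 18 and 23 models over both strands, of which 8, 16, 17 and 23 were on the plus strand. ND4 had 5, 7, 22 and 23 on the plus strand, and COX1, the catalytic subunit of cytochrome c oxidase, had 0, 8, 17 and 18. The median length of RNR2 models was 1562 bases, next to an annotated gene of 1559 bases, and that of COX3 models was 784.5 bases beside 784. RNR1, the 12S ribosomal RNA, had 0, 1, 17 and 13 models with a median length of 626 bases, beside an annotated gene of 954 bases. Medians were also under 700 bases at ND2 (684), ATP6 (543.5) and COX2 (589), but over 700 at RNR2, ND5 (1780.5 on the plus strand), ND4 (1168) and COX1 (1215). Models under 700 bases were nearly absent from the HEK-293T pools, and their part in the mitochondrial difference between the lines was not tested. Over chromosomes 1 to 22, X and Y alone, single-exon models were a larger share of the siHNRNPH1 pool by 0.12 percentage points in HEK-293T and 0.15 in HT-1080. In the short reads, RNR2 was at 4064, 4150 and 4551 CPM with siNegative and 6014, 6279 and 6380 CPM with siHNRNPH1 in HEK-293T, where the groups did not overlap (log2 fold change 0.52, SE 0.12, edgeR p adjusted over all genes by Benjamini-Hochberg = 0.043). In HT-1080 it was at 5297, 6055 and 5753 CPM and then at 5173, 4964 and 5256 CPM, all lower than the control libraries (-0.22, SE 0.06, adjusted p = 0.011). The HEK-293T call was lost without a filter on low counts (adjusted p = 0.19), with a replicate block (0.17) and on leaving out any library other than siHNRNPH1 replicate 1 (0.11 to 0.23). The HT-1080 call was lost without siHNRNPH1 replicate 2 (adjusted p = 0.061).

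Single-exon models mapped to 825 genes, of which 411 had no multi-exon model in any pool and 166 had single-exon models in all 4 pools. Models were concentrated: 110 genes with at least 10 models each held 2734 of them, while 269 genes had 1. After RNR2 came NORAD with 28, 28, 22 and 23 models, KCTD12 with 25, 40, 9 and 4, ARF6 with 10, 18, 26 and 21, and ND5 (over both strands) and MALAT1 with 67 in total each. LRATD2, with 26, 38, 0 and 0 models, and IRS4, an insulin receptor substrate, with 26, 37, 0 and 0, were seen in HEK-293T alone. IRS4 was at a mean of 1980 CPM in the HEK-293T siNegative short reads and at 0.022 CPM in HT-1080. HNRNPH1, EIF4G1 and AURKA, which the study is about, had no single-exon model in any pool.

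Of the 57 genes listed as intronless, 48 had at least 1 single-exon model, 24 had one in all 4 pools, and 35 of the 48 had no multi-exon model. Together they held 848 models, 16.9% of the total. The genes without any were SOX11, FOXQ1, FZD5, FZD8, PIGW, KCNQ1OT1 and 3 of the 8 histone genes. Those 3 histone genes, H2AC6, H2BC4 and H2BC12, had only multi-exon models, 18, 1 and 8 of them. The data went against the label of the list at other members too: PIGW had 30 models, all multi-exon, FZD5 had 1, a multi-exon one, and IRS4 had 178 multi-exon beside 63 single-exon models. Of the other 5 histone genes, 4 had single-exon models in HT-1080 alone, such as the linker histone H1-10 with 0, 0, 3 and 3, and H2BC21 had 1 in each pool. Replication-dependent histone mRNAs end in a stem-loop without a poly(A) tail, and the list mixes such genes with polyadenylated ones.

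Many models of these genes formed ladders: they shared a 3′ end and began at many positions. Over the 110 genes with at least 10 models, the commonest 3′ end (within 20 bases) held a median of 70.3% of a gene's models and the commonest 5′ end 35.5%, and the 3′ share was the larger in 77 genes. The genome sequence next to the 3′ ends was not at hand, so A-rich stretches there could not be checked. Shared ends, here and inside introns below, are therefore not shown to be poly(A) sites. At NORAD, 80 of 101 models ended at the same point (chr20:36045623-36050960, minus strand), and the longest models covered 5335 bases in all 4 pools. ARF6, a small GTPase of membrane traffic, had 64 of 75 models at 1 end (chr14:49892943-49897572, plus strand), and KCTD12, an auxiliary subunit of GABA-B receptors, had 61 of 78 (chr13:76880169-76886405, minus strand). NEAT1, the scaffold RNA of paraspeckles, had 46 of 62 models at the end of its short form (chr11:65422797-65445529, plus strand). MALAT1 was the reverse, with 39 of 67 models at 1 start and 20 at the commonest end (chr11:65497746-65504894, plus strand). CSTF2T, a retrogene of the polyadenylation factor CSTF2, also leaned to its start, with 78.1% of its 32 models there and 25% at 1 end. These coordinates are those of the files, which name no genome build; the submitters' processing notes name GRCh38.p13.

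**Figure D3:**
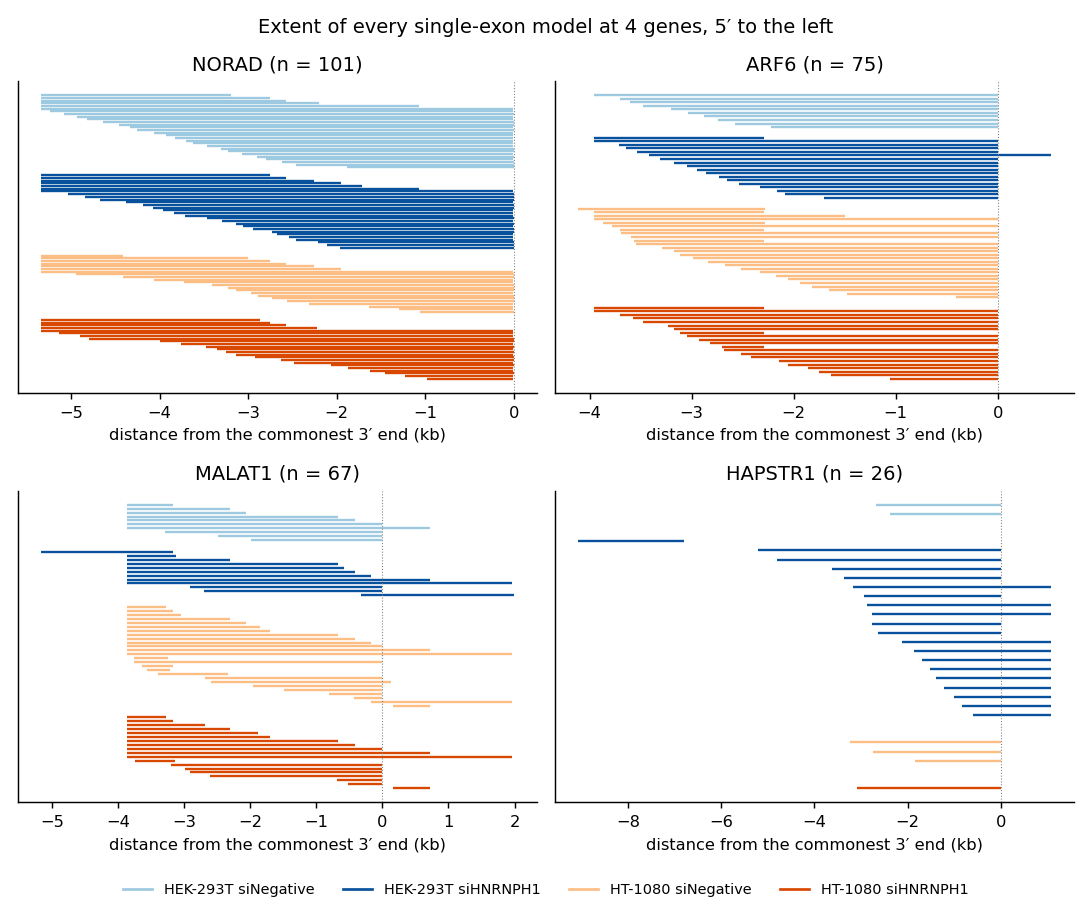
Extent of each single-exon model at NORAD, ARF6, MALAT1 and HAPSTR1, drawn 5′ to 3′ as distance (kb) from the commonest 3′ end of the gene and stacked by pool. NORAD and ARF6 show a shared 3′ end in all pools, MALAT1 a shared 5′ end, and the intronic models of HAPSTR1 a further 3′ end in the HEK-293T siHNRNPH1 pool only (12 models).

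Among models in genes with a RefSeq promoter on the same strand, 36.0%, 31.2%, 43.2% and 46.1% began within 50 bases of an annotated start, against 60.6%, 57.9%, 60.4% and 60.4% of multi-exon models. The 3′ ends of these single-exon models lay within 50 bases of the annotated gene end in 48.4%, 45.7%, 42.5% and 41.3%, against 41.5% to 42.1% of multi-exon models. The HEK-293T intervals (44.6 to 52.2% and 42.8 to 48.8%) lay above the multi-exon shares, and the HT-1080 shares were close to them. Both ends matched in 11.7%, 9.42%, 14.4% and 14.7% of single-exon models and in 22.7% to 23.9% of multi-exon ones. About as many models as not (48.2%, 53.8%, 51.7% and 51.0%) were nested in another single-exon model of the same pool.

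Overlap between pools was high within a line and lower between lines. Of the HEK-293T siNegative models, 86.1% (interval 83.8 to 88.3%) had a single-exon model on the same strand in the siHNRNPH1 pool with at least 80% reciprocal overlap, and 69.5% (67.1 to 71.8%) of the siHNRNPH1 models were found in the smaller siNegative pool. In HT-1080 the shares were 75.6% (73.2 to 78.0%) and 74.3% (71.8 to 76.7%). By the same rule applied to the spans of multi-exon models, 95.9% and 90.3% were found in HEK-293T and 91.9% and 92.8% in HT-1080. Between the control pools of the lines, 51.9% of the HEK-293T and 41.6% of the HT-1080 single-exon models were found in the other line. The share between lines was not computed for multi-exon models. Models under 700 bases made up 16.9% of the HT-1080 and 0.105% of the HEK-293T control single-exon models, and their part in the lower overlap was not tested. Intronic models were found least often within a line: 57.1% and 28.8% of 21 and 52 in HEK-293T, and 51.9% and 58.3% of 27 and 24 in HT-1080.

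Joined by any overlap on 1 strand, all models formed 926 clusters. Of these, 361 were in 1 pool, with 8.41% of the models, and 165 were in all 4, with 56.9%. Clusters in both siHNRNPH1 pools and no other numbered 26, and clusters in both siNegative pools and no other numbered 6. Multi-exon models, joined by the same rule into 12629 clusters, gave 75 and 31 such clusters. The larger HEK-293T siHNRNPH1 file alone gave 207 clusters not in its control, against 70 the other way, while HT-1080 had 167 and 139, and the part of file size in the counts of 26 and 6 was not tested. The 26 held 1 or 2 models in each pool; among them were ITPR1-DT, MANEA-DT and COX10-DT, divergent noncoding transcripts, and the KRAB zinc finger gene ZNF224. Outside all gene spans, 2 of 59 clusters were in all 4 pools, with 1 model in each: chr1:40256424-40257948 and chr16:21950220-21953063, both on the minus strand. The longest models with a like in all pools were 6771 and 6768 bases at RBM15, an RNA-binding partner of the m6A writer complex, 6309 bases at P2RY1, a purinergic receptor, and 6236 bases at KCTD12.

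Models that contained a spliced intron numbered 679, at 134 genes, and 402 of them contained 1 such intron. The 388 introns they spanned had a median length of 406 bases, against 1755 bases for all 134107 introns of the map. An intron had to lie whole within a model, so introns longer than the models could not be counted. The shorter median follows at least in part from this rule. The genes with the most were SRSF8 (8, 7, 10 and 10 models), a retrogene of the SR splicing factor family, IRS4 (13, 20, 0 and 0), LRATD2 (13, 19, 0 and 0), MALAT1 (5, 5, 10 and 9) and HOTAIRM1 (9, 7, 6 and 5), a long noncoding RNA of the HOXA cluster. Of the intron-spanning models, 132 lay at the listed intronless genes, where the intron is one that other models of these pools show as spliced. The share of single-exon models that spanned an intron was lower with siHNRNPH1 in both lines, by amounts within the overlapping intervals of the pools.

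The 3 genes with the most models wholly inside introns were HAPSTR1, PIP5K1B and UBE3C. HAPSTR1, which encodes a stress-response regulator, had 2, 19, 3 and 1 of them, UBE3C, a ubiquitin ligase gene, had 4, 10, 0 and 1, and PIP5K1B, a phosphoinositide kinase gene, had 3, 3, 5 and 5. Those of HAPSTR1 lay within a 13408-base intron (chr16:9103260-9116667, plus strand) that multi-exon models of every pool show as spliced. They ended at 2 points. The first, at base 9112100, was used by 2, 7, 3 and 1 models and so was seen in all pools. The second, at base 9113180, was used by 12 models of the HEK-293T siHNRNPH1 pool and by none of the other 3 pools. Counting also 1 model that begins before this intron, runs on into it and fits within an exon of a multi-exon model, HAPSTR1 had 2 models in the HEK-293T siNegative pool and 20 in the siHNRNPH1 pool, 6.82 times as many per total models (exact interval 1.66 to 60.2), while its multi-exon models numbered 2 and 6. HT-1080 went from 3 to 1 single-exon models. Without HAPSTR1 the intronic share was 2.00% and 2.18% in the HEK-293T pools and 1.94% and 1.80% in the HT-1080 pools. In the short reads HAPSTR1 was at 129, 137 and 131 CPM with siNegative and at 70.4, 194 and 200 CPM with siHNRNPH1 in HEK-293T (log2 fold change 0.19, SE 0.37, edgeR adjusted p = 0.79). The low library is replicate 1, and without it the log2 fold change was 0.52 (adjusted p = 2.7e-12). In HT-1080 it was at 124, 119 and 126 CPM and at 126, 120 and 120 CPM (-0.08, SE 0.04, adjusted p = 0.13).

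The intronic UBE3C models shared 1 end at base 157192863 of chromosome 7, inside a 14699-base intron (chr7:157187022-157201720, plus strand), and were 1855 to 4964 bases long. UBE3C short reads stood at 267, 271 and 268 CPM with siNegative and 159, 323 and 329 CPM with siHNRNPH1 in HEK-293T (log2 fold change -0.03, SE 0.27, edgeR adjusted p = 0.96). Without replicate 1 the value was 0.22 (adjusted p = 2.9e-07), the opposite direction. The PIP5K1B models began close together in most cases, but not at a single base, and ended at 6 points from base 68781414 to base 68784597 of chromosome 9. Of these ends, 3 were seen in pools of both lines (68783600, 68784425 and 68784597), and the other 3 in HT-1080 alone.

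Per gene, few counts of single-exon models differed between the siRNAs by 2-fold or more after scaling to all models of the pool. Of the 30 HEK-293T genes with at least 10 models in 1 pool, 1 (3.33%) was at least 2-fold higher with siHNRNPH1, HAPSTR1, and 2 (6.67%) were at least 2-fold lower, NEAT1 and RANBP6. Of the 25 such HT-1080 genes, none (0%) was higher and 3 (12%) were lower: FEM1A with 12 and 3 models, MGAT2 with 12 and 5, and RANBP6 with 10 and 4. Each of these genes reached the minimum of 10 models only through the pool in which it was high, so these counts describe the pools and support nothing further. RANBP6, a retrogene of the importin family, was 2-fold lower in both lines, 1 of the 11 genes with at least 10 models in 1 pool of each line (9.09%), and it had 12 and 7 models in HEK-293T. Its ratios were 0.40 (exact interval 0.13 to 1.10) and 0.42 (0.097 to 1.47), so the counting error of each includes equality. In the short reads RANBP6 was at 82.5, 81.5 and 83.7 CPM and then at 18.95, 53.2 and 56.1 CPM in HEK-293T, lower in every siHNRNPH1 library (log2 fold change -0.99, SE 0.38, edgeR adjusted p = 0.17; -0.65 without replicate 1, adjusted p = 4.6e-13). In HT-1080 it fell from 77.4, 74.1 and 78.4 CPM to 53.8, 52.3 and 48.9 CPM (-0.64, SE 0.05, adjusted p = 3.3e-06). FEM1A, an adaptor of a ubiquitin ligase, was at 67.7, 64.0 and 65.5 CPM and at 66.3, 64.5 and 66.4 CPM in HT-1080 (-0.07, SE 0.04, adjusted p = 0.20). MGAT2, a Golgi glycosyltransferase, was at 98.4, 99.8 and 102 CPM and at 74.6, 74.4 and 74.7 CPM (-0.49, SE 0.04, adjusted p = 4.1e-06).

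**Figure D4:**
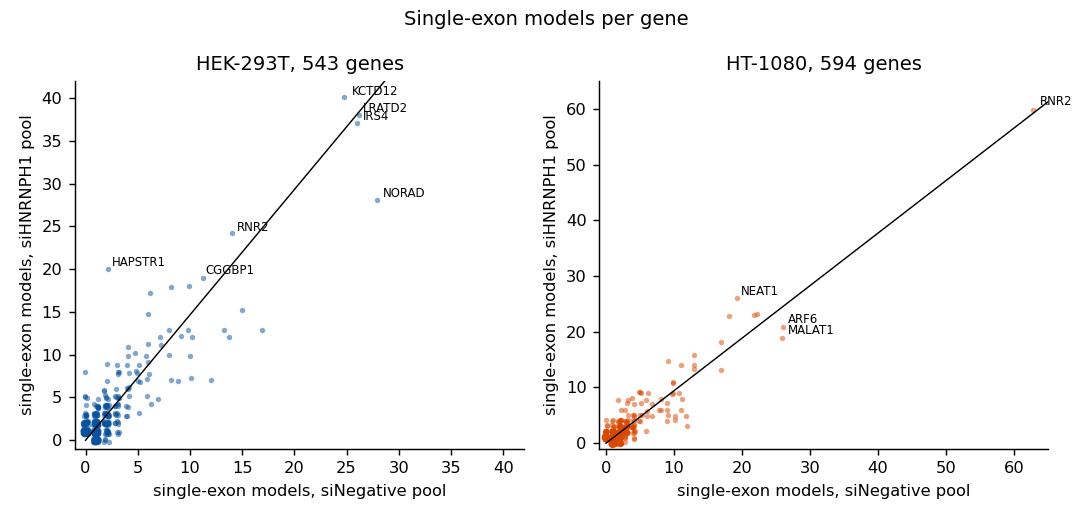
Number of single-exon models per gene in the siNegative pool (x axis) and the siHNRNPH1 pool (y axis) of each line, with small random offsets so that equal counts can be told apart. The line is the ratio of all models of the 2 pools; HAPSTR1, with 2 and 20 models, lies farthest above it among genes with at least 10 models in HEK-293T.

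Short-read levels of the genes listed as intronless were then compared between the siRNAs with edgeR's quasi-likelihood test, separately in each line and with the same adjustment of p over all genes tested. In these bulk libraries, fewer cells with an RNA and less of it per cell cannot be told apart. In HEK-293T, 14 of 57 list genes (24.6%) changed, 8 up and 6 down, beside a background of 10% of 19966 genes (5.12% up and 4.88% down), and the median log2 fold change was 0.12 for the list and 0.02 for all genes tested. These HEK-293T calls depended on single libraries. Leaving out siHNRNPH1 replicate 1 gave 46 (26 up and 20 down, where 61.8% of all genes were called, 30.5% up and 31.3% down). Leaving out any of the siNegative libraries gave 0, and leaving out siHNRNPH1 replicate 2 or 3 gave 3 or 7. No share over all genes was computed for the fits with 0, 3 or 7, so whether the loss is particular to the list was not tested. The HEK-293T call of HNRNPH1 itself (adjusted p = 0.0094) was also lost without any 1 siNegative library (adjusted p = 0.074 to 0.076). The HEK-293T calls of NEAT1, MALAT1, JUN and HSPA1B, given next, were likewise lost without any 1 siNegative library or without siHNRNPH1 replicate 2, and with a replicate block (adjusted p = 0.058 to 0.13), and that of MALAT1 also without siHNRNPH1 replicate 3 (adjusted p = 0.059). In HT-1080, 43 of the 53 genes tested (81.1%) changed, 23 up and 20 down, beside 65.3% of 16145 genes (32.7% up and 32.6% down). By role, HEK-293T calls were 3 up among 18 transcription factors, 3 up and 1 down among 8 histones, 1 down among 14 signalling genes, 2 up and 2 down among 13 RNA and protein handling genes and 2 down among 4 long noncoding RNAs. HT-1080 calls in the same groups were 8 up and 6 down, 5 up and 3 down, 4 up and 5 down, 3 up and 5 down, and 3 up and 1 down. Of the wider set of genes with a single-exon model, 95 of 711 tested in HEK-293T changed (13.4%, 29 up and 66 down), beside 10% of all genes. In HT-1080 460 of 666 changed (69.1%, 275 up and 185 down), beside 65.3% of all genes. Without HEK-293T siHNRNPH1 replicate 1 the HEK-293T count was 509 of 712 (71.5%, 194 up and 315 down), beside 61.8% of all genes.

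Called in both lines were 11 of the 53 list genes tested in both (20.8%), 8 in the same direction and 3 in opposite directions. Over all 15010 genes tested in both lines, 1034 (6.89%) were called in both, 814 of them in the same direction and 220 in opposite directions. H2AC6, a core histone gene with only multi-exon models in these pools, was among the former. It rose from a mean of 0.88 to 3.51 CPM in HEK-293T and from 8.57 to 38.3 CPM in HT-1080, with log2 fold changes of 1.97 (edgeR adjusted p = 0.0092) and 2.09 (adjusted p = 2.7e-08). With a replicate block, or without any 1 siNegative library, no list gene was called in HEK-293T. The HEK-293T call of H2AC6 and the count of 11 were therefore lost in those fits. The count over all genes was not computed for them.

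The 8 list genes with the most single-exon models, among those present in all 4 pools, were NORAD, KCTD12, ARF6, MALAT1, NEAT1, EXOC8, HNRNPA0 and JUN. Being listed as intronless did not exclude multi-exon models. Over the 4 pools there were 18 at ARF6, 12 at JUN, 6 at MALAT1, 3 at KCTD12, 3 at NEAT1 and 1 at HNRNPA0. NORAD and EXOC8 had 0. NEAT1 in HEK-293T was at 241, 246 and 251 CPM in the siNegative libraries and at 21.45, 55.0 and 55.8 CPM with siHNRNPH1. All siHNRNPH1 libraries lay below all controls, replicate 1 lowest (log2 fold change -2.52, SE 0.36, edgeR adjusted p = 0.016). In HT-1080 it was at 808, 770 and 846 CPM and at 718, 784 and 790 CPM, groups that overlapped (-0.15, SE 0.05, adjusted p = 0.036). The HT-1080 call was lost on leaving out any library other than siNegative replicate 2 (adjusted p = 0.058 to 0.16). NEAT1 models numbered 10, 7, 19 and 26.

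MALAT1 in HEK-293T was at 91.2, 91.0 and 93.1 CPM with siNegative and at 13.3, 31.5 and 33.4 CPM with siHNRNPH1. It fell without overlap of the groups (log2 fold change -1.86, SE 0.33, edgeR adjusted p = 0.027). In HT-1080 it rose from 134, 129 and 136 CPM to 176, 186 and 191 CPM (0.40, SE 0.04, adjusted p = 3.2e-05). The strandedness of the counting is not given in the sources used here, so reads of MALAT1 and of its antisense partner TALAM1 may not have been told apart. MALAT1 models numbered 10, 12, 26 and 19, so their count per pool was lower with siHNRNPH1 in HT-1080, where the short reads were higher.

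NORAD was at 260.5, 265 and 261 CPM and at 89.96, 222 and 232 CPM in HEK-293T (log2 fold change -0.57, SE 0.34, edgeR adjusted p = 0.34; -0.26 without replicate 1, adjusted p = 6.5e-08). In HT-1080 it rose from 436, 364 and 434 CPM to 536, 519 and 541 CPM (0.30, SE 0.07, adjusted p = 0.0026). All siHNRNPH1 libraries were below the controls in HEK-293T and above them in HT-1080.

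JUN, a subunit of the AP-1 transcription factor, rose in HEK-293T from 68.9, 75.7 and 67.6 CPM to 132, 134 and 121 CPM (log2 fold change 0.84, SE 0.12, edgeR adjusted p = 0.017). It fell in HT-1080 from 199, 207 and 211 CPM to 177, 181 and 174 CPM (-0.28, SE 0.04, adjusted p = 0.00025). Its models numbered 4, 11, 11 and 9.

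HNRNPA0 was at 180, 186 and 174 CPM and at 149.5, 166 and 157 CPM in HEK-293T (log2 fold change -0.22, SE 0.11, edgeR adjusted p = 0.26; -0.21 without replicate 1, adjusted p = 6.8e-06). In HT-1080 it fell from 204, 206 and 201 CPM to 113, 119 and 116 CPM (-0.88, SE 0.04, adjusted p = 1.0e-07), and its models numbered 7, 12, 11 and 6. ARF6 was at 99.1, 95.5 and 95.3 CPM and at 98.9, 129.98 and 131 CPM in HEK-293T, with overlapping groups (0.28, SE 0.13, adjusted p = 0.25; 0.38 without replicate 1, adjusted p = 4.9e-10). It fell in HT-1080 from 270.2, 264 and 264 CPM to 197, 203 and 195 CPM (-0.49, SE 0.04, adjusted p = 3.5e-06).

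KCTD12 was at 186, 183 and 181 CPM and at 138, 272 and 280.5 CPM in HEK-293T (log2 fold change 0.29, SE 0.26, edgeR adjusted p = 0.52; 0.54 without replicate 1, adjusted p = 2.9e-13). In HT-1080 it was at 42.5, 33.3 and 40.7 CPM and at 37.1, 38.5 and 37.4 CPM (-0.11, SE 0.08, adjusted p = 0.26). EXOC8, a subunit of the exocyst, was at 72.6, 70.0 and 71.9 CPM and at 32.7, 87.6 and 91.4 CPM in HEK-293T (-0.06, SE 0.36, adjusted p = 0.93), and without replicate 1 its log2 fold change was 0.27 (adjusted p = 5.0e-07). In HT-1080 EXOC8 was at 19.8, 16.9 and 18.96 CPM and at 19.04, 20.5 and 21.7 CPM (0.07, SE 0.08, adjusted p = 0.43). Both genes had more single-exon models in HEK-293T, where their short reads were also the higher.

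**Figure D5:**
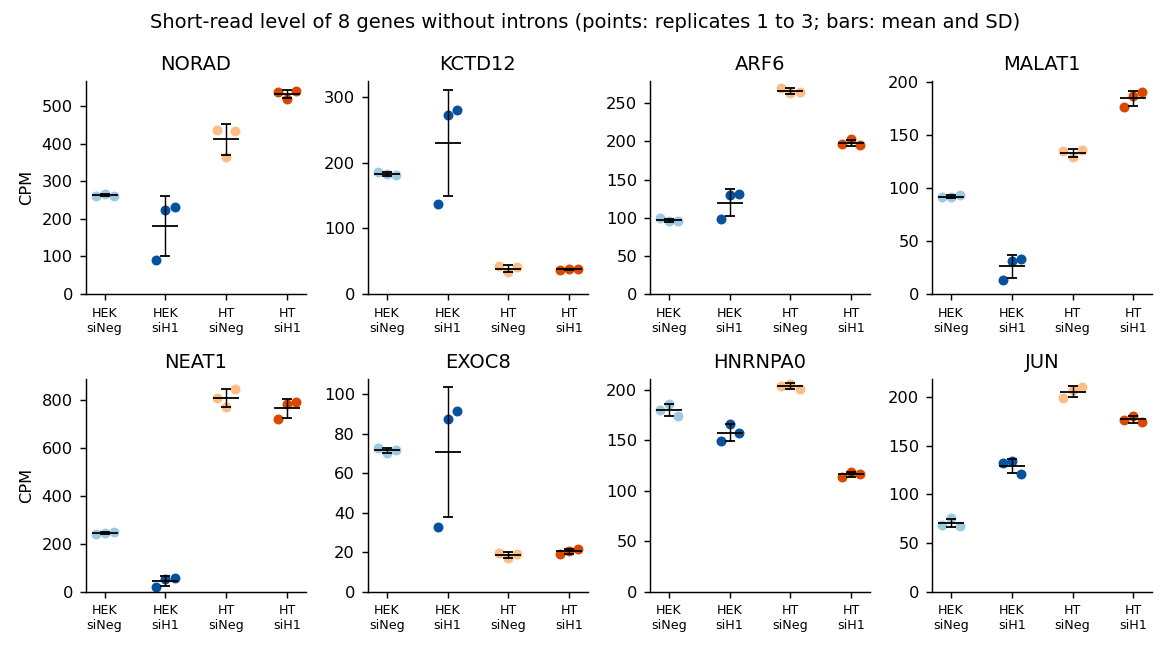
Short-read level (CPM) of the 8 genes listed as intronless with the most single-exon models, among those with such models in all 4 pools, by line and siRNA (siNeg, siNegative; siH1, siHNRNPH1). Points are replicates 1 to 3 from left to right, and bars are the mean and SD of n = 3; for NEAT1 and MALAT1 all HEK-293T siHNRNPH1 libraries lie below the controls, and the HEK-293T siHNRNPH1 replicate 1 lies lowest of its group in 7 of the 8 panels.

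The size of the response differed between the lines for 5 of these 8 genes by a cell line by siRNA interaction over all 12 libraries (background 19% of 21276 genes, 8.13% with the higher value in HT-1080 and 10.8% with the lower). The log2 fold change in HT-1080 minus that in HEK-293T was 2.31 for NEAT1 (SE 0.35, edgeR adjusted p = 0.0012), 2.20 for MALAT1 (SE 0.33, adjusted p = 0.0010), -1.20 for JUN (SE 0.13, adjusted p = 0.00015), -0.84 for ARF6 (SE 0.12, adjusted p = 0.00080) and -0.73 for HNRNPA0 (SE 0.11, adjusted p = 0.00084). It was 0.81 for NORAD (adjusted p = 0.13), -0.47 for KCTD12 (adjusted p = 0.27) and 0.07 for EXOC8 (adjusted p = 0.96). Without HEK-293T siHNRNPH1 replicate 1 all 8 genes were called. The share over all genes was not computed for that fit, and the 19% is not its background.

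Values are given for 3 genes outside these 8, which were chosen after their values were seen. HSPA1B, an inducible HSP70 chaperone gene, had 6, 15, 2 and 2 models. In HEK-293T it rose from 823, 821 and 713 CPM to 2476, 2096 and 1764 CPM (log2 fold change 1.41, SE 0.18, edgeR adjusted p = 0.012), and in HT-1080 it was at 59.5, 69.9 and 65.3 CPM and at 72.8, 75.6 and 75.4 CPM (0.13, SE 0.06, adjusted p = 0.090). Its reads can be shared with the near-identical HSPA1A, so the level of either gene is uncertain. SRSF8 had 8, 7, 10 and 11 models. It was at 56.8, 57.4 and 58.7 CPM and at 34.85, 47.4 and 46.6 CPM in HEK-293T (-0.46, SE 0.14, adjusted p = 0.097; -0.35 without replicate 1, adjusted p = 1.5e-08), and in HT-1080 it rose from 29.6, 27.2 and 26.2 CPM to 53.3, 55.2 and 55.1 CPM (0.91, SE 0.06, adjusted p = 6.3e-07). LINC00641, a long noncoding RNA with 6, 17, 0 and 0 models, was at 51.1, 52.8 and 53.4 CPM and at 37.9, 121 and 122 CPM in HEK-293T (0.79, SE 0.42, adjusted p = 0.29; 1.16 without replicate 1, adjusted p = 5.3e-18). In HT-1080 it rose from 28.3, 22.05 and 25.9 CPM to 39.4, 39.97 and 41.2 CPM (0.59, SE 0.08, adjusted p = 0.00012), although no single-exon model of it was in either HT-1080 pool.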

How the data were processed

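The members and gene lists were chosen with earlier results of these data known. Per the labels, the authors deposited RSEM expected counts per transcript for 12 short-read libraries; the processing notes of the submitters name RSEM and GRCh38.p13, and the aligner, annotation release and strandedness are not given in the sources used here. The IsoSeq files deposited by the authors list exon positions and no read counts. Gene names and strands came from RefSeq tables (GRCh38.p14; 29077 gene strands from the tables, 2271 from multi-exon models, 28444 unknown). Expected counts were summed per gene, rounded, filtered with filterByExpr, scaled by TMM and tested with edgeR 4.0.16 (quasi-likelihood, robust, two-sided), Benjamini-Hochberg (BH) adjusted over all genes tested, threshold 0.05; CPM is per library total. Of the 825 genes with a model, 758 were matched to the tables. All columns were matched to samples. Genes named follow a fixed rule: the 8 list genes with most models in all 4 pools, HNRNPH1, EIF4G1 and AURKA, the 5 genes with most models, genes changed 2-fold in both lines, the 5 longest models and intergenic clusters shared by all pools; other names were chosen after seeing values. The edgeR test within each line was tried on simulated counts without an outlying library. Position classes, overlaps and clusters were tried on made-up models. The other steps were not tested in this way. Samples were not paired by replicate number in the main fits. Same-number correlations of deviations were 0.023 to 0.098 in HEK-293T and -0.0019 to 0.085 in HT-1080. Different-number ones were -0.089 to 0.063 and -0.096 to 0.062 in the same order. These values do not exclude pairing. Some items are not reported here.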

Additional observations from a re-analysis of the deposited data

Results flagged for a closer look

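The short-read response differed between the lines, by the interaction test in edgeR, at 9 of the 19 named genes tested, beside 19% of all 21276 genes. Some of the 19 were chosen after their values were seen. The log2 fold change in HT-1080 minus that in HEK-293T was 2.31 for NEAT1, 2.20 for MALAT1 and 1.298 for SRSF8 (BH-adjusted p = 0.00011). It was -1.35 for HSPA1B (adjusted p = 0.0014), -1.20 for JUN, -0.84 for ARF6, -0.82 for RNR2 (adjusted p = 0.0016), -0.73 for HNRNPA0 and -0.48 for MGAT2 (adjusted p = 0.0099). Without HEK-293T siHNRNPH1 replicate 1 these differences kept their signs, with 2.01 for NEAT1, 1.91 for MALAT1 and -0.44 for MGAT2.

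Between siHNRNPH1 and siNegative, the intronic share of single-exon models moved by 1.18 percentage points in HEK-293T and by -0.30 points in HT-1080, and the median length moved by -122 bases in HEK-293T and by 109.5 bases in HT-1080. These opposite directions rest on 1 pool per group, and whether the lines differ was not tested.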

How the results depend on the processing

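The IsoSeq differences were small and some moved with the definition. In HEK-293T, the share of loci with only single-exon models was 0.35 points higher with siHNRNPH1, and the difference in median length was -0.50 bases with 1 model per locus. The intronic share in HEK-293T, 1.18 points higher with siHNRNPH1, was 2.00 points higher with a map from the same pool and 0.35 over clusters. In HT-1080 it turned to 0.43 points higher with a map from the same pool and to 0.26 points higher over clusters. The share of siNegative models found in the siHNRNPH1 pool was 90.3% and 84.6% (HEK-293T and HT-1080) at 50% overlap, 73.5% and 58.3% at 95%, and 82.4% in HEK-293T for 3′ ends within 10 bases. The HEK-293T count of 14 changed list genes was 9 without a filter on low counts, 0 with a replicate block and 0 to 46 when single libraries were left out; DESeq2 gave 19. The HT-1080 count of 43 stayed at 41 to 47 with single libraries left out and was 45 with the block. The interaction count of 5 was 5 to 8. Of all these alternative fits, a share over all genes was computed only for that of HEK-293T alone without siHNRNPH1 replicate 1. With single libraries left out, the log2 fold changes that crossed 0 ranged from -0.10 to 0.086 for FEM1A (-0.0068 without a filter), -0.038 to 0.52 for HAPSTR1, -0.29 to 0.27 for EXOC8 and -0.19 to 0.22 for UBE3C in HEK-293T, and from -0.084 to 0.0079 for UBE3C in HT-1080. The causes were not tested. Models carry no read depth, so classes of few models are limited by counting error, and 1 pool per group gives no spread between pools.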
